A study of Mus musculus with 18 samples.

Results

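The peroxisome proliferator-activated receptors (*Pparg*, *Ppara*, *Ppard*), the retinoid X receptors (*Rxra*, *Rxrb*, *Rxrg*) and the PGC-1 coactivators (*Ppargc1a*, *Ppargc1b*) were examined in 10T1/2 cells, a multipotent mouse fibroblast line. These 8 genes were taken by symbol from the 54532 genes of the deposited count table. Cells were WT or belonged to 1 of 2 FOXS1 knockout (KO) lines, clones 1 and 2, each grown from a single edited cell, and no other allele was given for any group. They were grown to 2 days after confluence and were either left as uninduced controls or given TGF-β1 (1 nM) for 12 h and then DMII for 48 h, called stimulated here. The study's methods give overnight serum starvation before TGF-β1 and do not state whether the controls were starved too. DMII, an adipogenic cocktail, holds insulin, indomethacin, 3-isobutyl-1-methylxanthine and dexamethasone, and no group used here received TGF-β1 or DMII alone. There were 3 libraries in each of the 6 groups. Nothing in the labels gives the replicates as separate cultures, so p-values measure only the spread between these libraries.

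PPARs are ligand-activated nuclear receptors that bind DNA as heterodimers with an RXR, at paired copies of a half-site spaced by a single base. PPARγ, with C/EBPα, drives fat cell differentiation, while PPARα and PPARδ are best known for genes of fatty acid oxidation. PGC-1α and PGC-1β dock on these and other nuclear receptors and raise transcription of mitochondrial and oxidative genes. Indomethacin can act as a PPARγ ligand, dexamethasone activates the glucocorticoid receptor, and 3-isobutyl-1-methylxanthine raises cAMP, a known inducer of *Ppargc1a* through CREB.

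Library totals ran from 15576685 to 42005596 counts (median 20178953.5), and 14317 genes passed the filter on low counts, among them 6 of the 8 genes. All 18 replicate pairs varied beyond counting noise (chi-square over its degrees of freedom 3.13 to 14.6). *Foxs1*, the targeted gene, was higher in the libraries labelled clone 1 and clone 2 than in WT cells, at 23.4 to 56.8 CPM (counts scaled to TMM-normalized library size) for clone 1 and 21.1 to 42.8 CPM for clone 2 against 1.64 to 3.25 CPM in WT cells. The study's methods checked the clones by sequencing the edited locus and by western blot for the protein. A total per gene cannot show the edit, and every direction below rests on the genotype labels. All 8 fibroblast markers were over 1 CPM on average in every group, except *Thy1* in clone 2. The summed adipocyte markers reached 30.5 to 43.0 CPM in stimulated clone 1, 2.71 to 4.64 CPM in stimulated clone 2 and 0.293 to 1.22 CPM in stimulated WT cells, and *Lep* and *Retn* had no count in any library. In stimulated clone 1 *Fabp4*, *Plin1* and *Cidec* carried most, at means of 20.4, 7.78 and 7.56 CPM. *Adipoq* averaged 0.207 CPM there, below the 0.596 CPM of uninduced WT cells. In clone 2 *Adipoq* went from 0.954 to 0.115 CPM on stimulation. *Cfd* had no count in any stimulated group. Summed endothelial markers were 5.03 to 7.92 CPM in uninduced WT cells and below 1 CPM elsewhere. In uninduced WT cells *Tek* carried most, at a mean of 5.91 CPM. *Pecam1* averaged 0.617 CPM and *Cdh5* 0.0127 CPM there, and *Kdr* and *Cldn5* had no count. Gene coordinates are those of GRCm38, and no exon of the 8 genes overlaps another gene in GENCODE M21.

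The 8 genes ranked in nearly the same tiers in every group when compared per length (CPM per kb of the deposited gene length). *Rxra* was highest throughout, from 21.8 ± 0.770 CPM per kb (SD, n = 3) in stimulated WT cells to 92.6 ± 5.27 in stimulated clone 1. *Pparg*, *Rxrb* and *Ppard* followed. In uninduced WT cells they stood at 16.7 ± 0.498, 15.1 ± 0.697 and 7.92 ± 0.0823 CPM per kb without overlap, and in stimulated WT cells *Pparg* dropped below both, to 1.42 ± 0.124. It also stood below both in stimulated clone 2, at 6.80 ± 0.816, and by mean in stimulated clone 1, at 11.9 ± 0.505. *Pparg* overlapped *Ppard* in uninduced and in stimulated clone 1, and *Rxrb* in uninduced clone 2. The PGC-1 genes stayed near or below 1 CPM per kb, and *Ppara* and *Rxrg* were at or near 0.

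**Figure D1:**
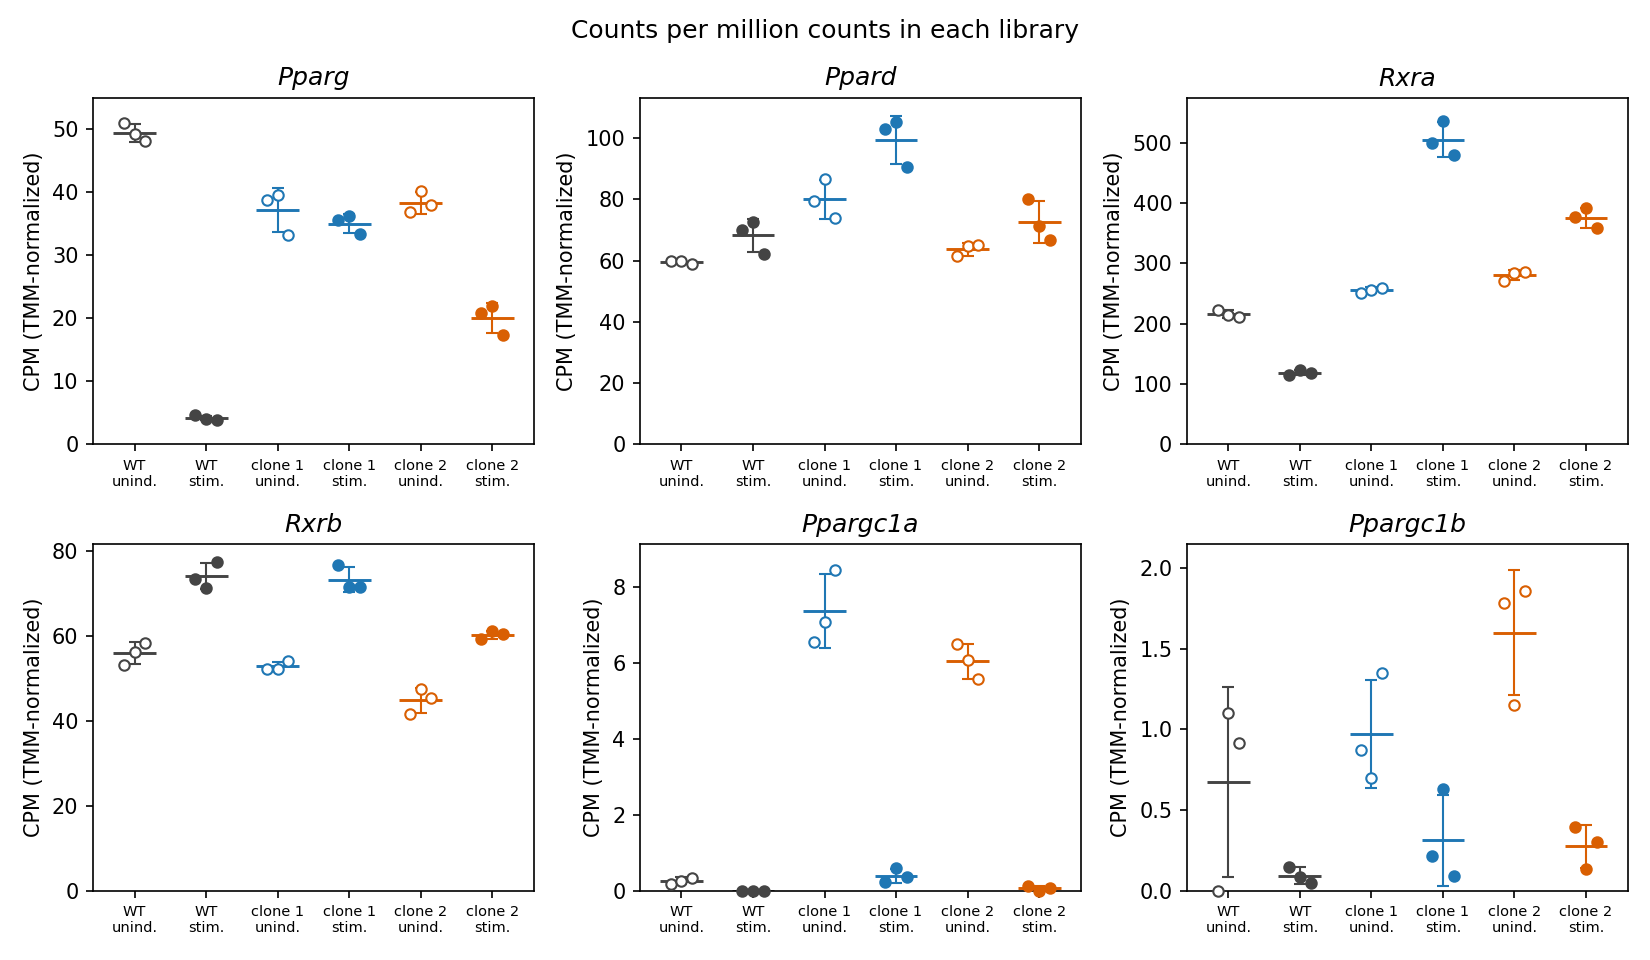
TMM-normalized CPM (y axis, linear from 0) of the 6 tested genes in each library, by group (x axis). Open points are uninduced and filled points stimulated libraries, with lines at the mean and bars for the SD (n = 3); *Pparg* and *Rxra* fell in stimulated WT cells, and *Ppargc1a* was high in the uninduced clones alone.

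*Rxra* (ENSMUSG00000015846, chromosome 2 from 27676440 to 27762957, plus strand) encodes RXRα, the common dimer partner of the PPARs. Stimulation lowered it in WT cells and raised it in both clones. Uninduced WT libraries had 223, 215 and 211 CPM and stimulated WT libraries 115, 124 and 118 CPM. In clone 1 the values were 250.5, 256 and 260 CPM uninduced and 500, 537 and 480 CPM stimulated, and in clone 2 they were 271, 285 and 285 CPM uninduced and 377, 392 and 359 CPM stimulated. No stimulated library overlapped the uninduced libraries of its genotype, and every stimulated clone library lay above every WT library. Among all tested genes, libraries were as fully apart on stimulation for 62.0% in WT cells, 61.0% with clone 1 and 64.9% with clone 2, against 5, 5 and 6 of the 6 genes here. The log2 fold change on stimulation was -0.86 (SE 0.0485) for WT, 0.99 (SE 0.0474) for clone 1 and 0.42 (SE 0.0472) for clone 2. In each the adjusted p of edgeR's quasi-likelihood test was at most 5.92e-09, but no change reached the fold threshold (an absolute log2 fold change above 1), which a call also required. Against WT, *Rxra* was 4.25-fold higher in stimulated clone 1 (log2 fold change 2.09, SE 0.0493, adjusted p = 8.75e-25) and 3.16-fold higher in stimulated clone 2 (1.66, SE 0.0490, adjusted p = 2.36e-22). In uninduced cells the log2 differences were 0.24 in clone 1 and 0.37 in clone 2. The medians over 801 genes of chromosome 2 averaging 5 CPM or more were 0.19 and -0.04 there. The part of such shifts was not tested. The difference in response from WT, the interaction of genotype and treatment, was 1.85 (95% interval 1.71 to 1.99, adjusted p = 3.34e-19) in clone 1 and 1.29 (1.15 to 1.42, adjusted p = 2.25e-15) in clone 2. The WT libraries are shared by both comparisons. Between the clones, stimulated clone 1 exceeded clone 2 by 0.43 on the log2 scale (SE 0.0469). Clone 1's own response lay at the fold threshold and passed it without any single stimulated library of WT or clone 2, at 1.00, and without stimulated clone 1 replicate 1 (1.01) or 3 (1.05).

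*Pparg* (ENSMUSG00000000440, chromosome 6 from 115360951 to 115490399, plus strand) encodes PPARγ. Stimulated WT cells held little of it, at 4.60, 4.02 and 3.92 CPM after 51.0, 49.2 and 48.1 CPM in uninduced WT cells. Clone 1 had 38.8, 39.5 and 33.2 CPM uninduced and 35.6, 36.2 and 33.3 CPM stimulated, and these groups overlapped. Clone 2 had 36.8, 40.3 and 37.9 CPM uninduced and 20.8, 22.0 and 17.4 CPM stimulated, without overlap. *Pparg* was lower than WT in both uninduced clones (log2 differences -0.41 and -0.37, with adjusted p = 0.000167 and 0.000499 in edgeR), though not past the fold threshold. The medians over 482 genes of chromosome 6 were -0.16 and -0.17 in these comparisons, and their part was not tested. *Pparg* was 8.39-fold higher in stimulated clone 1 (log2 fold change 3.07, SE 0.107, adjusted p = 1.22e-20) and 4.80-fold higher in stimulated clone 2 (2.26, SE 0.112, adjusted p = 7.49e-17). The response itself was -3.57 (SE 0.106) in WT cells and -0.93 (SE 0.0904) in clone 2, short of the fold threshold, while in clone 1 the interval of -0.26 to 0.09 included 0. It differed from that of WT by 3.48 (95% interval 3.20 to 3.76) in clone 1 and 2.63 (2.34 to 2.92) in clone 2. Stimulated clone 1 was above clone 2 by 0.80 (SE 0.0910). The summed adipocyte markers, mostly *Fabp4*, *Plin1* and *Cidec*, were highest in the same clone, and their part in the difference was not tested. In bulk RNA, fewer cells with the transcript and less transcript per cell cannot be told apart. Counts per gene do not separate transcripts from the 3 *Pparg* starts in RefSeq. Of their upstream windows only that of the third start held the forkhead core TGTTTA, and it is shown because the targeted gene encodes a forkhead protein. It lies at chr6:115421816-115422065 (plus strand, GRCm38.p6, from RefSeq), and capitals mark the match, which starts 120 bases before the window's end.
Pparg upstream window: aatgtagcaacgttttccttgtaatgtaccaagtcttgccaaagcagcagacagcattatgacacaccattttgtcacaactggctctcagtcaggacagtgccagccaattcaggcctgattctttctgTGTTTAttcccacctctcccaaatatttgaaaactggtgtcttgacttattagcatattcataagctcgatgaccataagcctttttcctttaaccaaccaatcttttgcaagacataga
Of 32851 windows of 250 bases before RefSeq starts in the mouse genome, 12% held TGTTTA on either strand. So did the window before the second *Rxrb* start, which lies inside an exon.

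**Figure D2:**
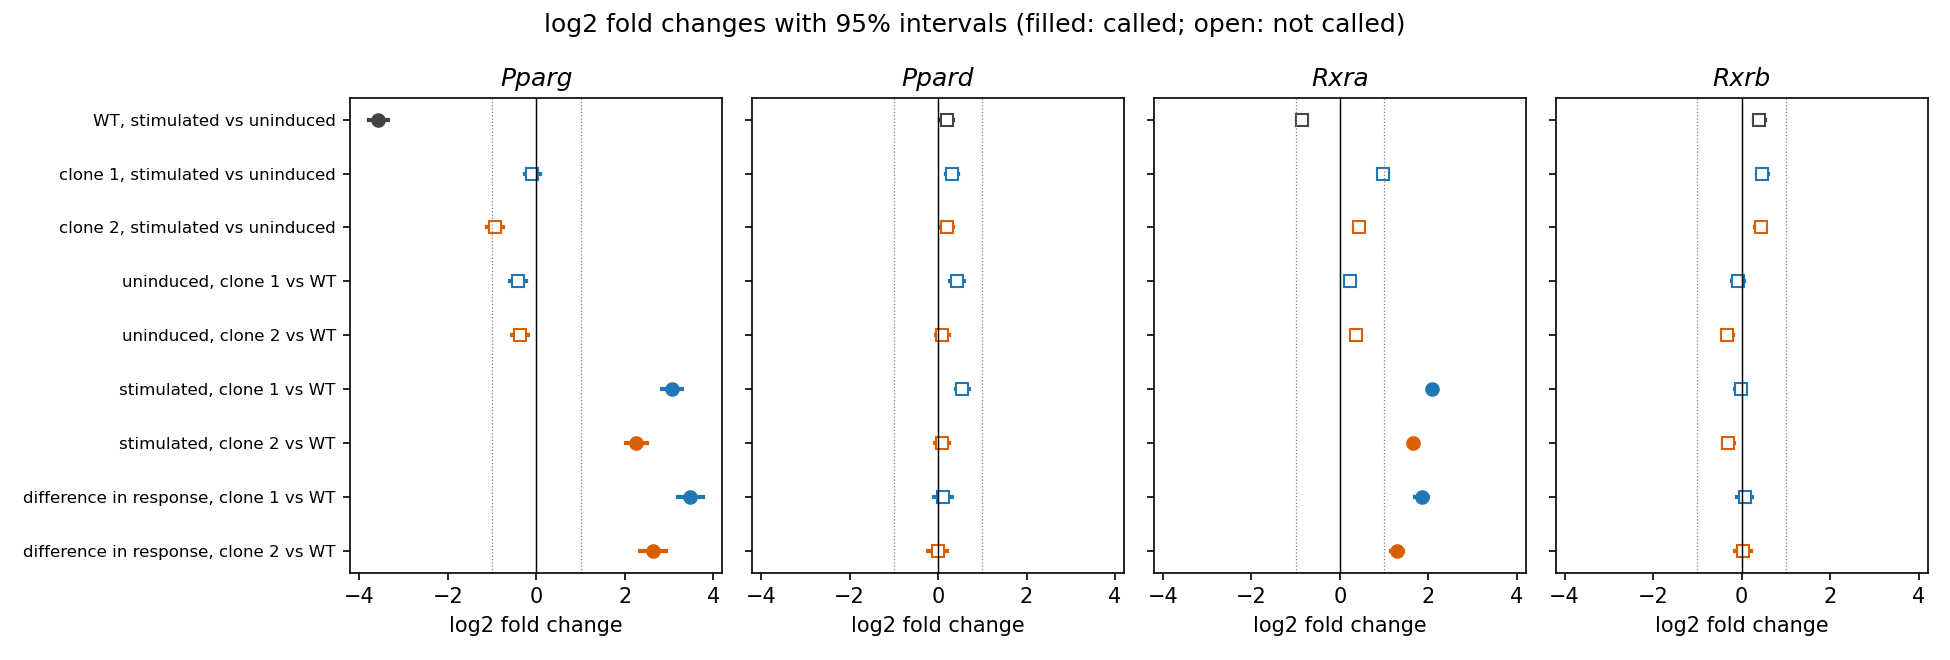
Fitted log2 fold changes (x axis) of *Pparg*, *Ppard*, *Rxra* and *Rxrb* in 9 comparisons (y axis), with 95% intervals as bars and dotted lines at the fold threshold. *Pparg* and *Rxra* stood past it in stimulated clones against WT and in the difference in response, while *Ppard* and *Rxrb* stayed inside it throughout.

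*Ppard* and *Rxrb*, the broadly expressed members of the receptor families, moved little. *Ppard* (ENSMUSG00000002250, chromosome 17 from 28232700 to 28301474, plus strand), which encodes PPARδ, ranged from 58.8 to 59.9 CPM in uninduced and 62.3 to 72.5 CPM in stimulated WT cells. It was highest in clone 1, at 73.8 to 86.7 CPM uninduced and 90.5 to 105 CPM stimulated, and clone 2 had 61.4 to 65.0 and 66.7 to 80.2 CPM. Its log2 fold change against WT in stimulated cells was 0.54 (95% interval 0.40 to 0.69) in clone 1 and 0.09 (-0.06 to 0.24) in clone 2. *Rxrb* (ENSMUSG00000039656, chromosome 17 from 34031812 to 34038393, plus strand), which encodes RXRβ, moved up on stimulation by 0.40, 0.47 and 0.43 on the log2 scale in WT, clone 1 and clone 2, each with an adjusted p of at most 1.45e-06 in edgeR and none past the fold threshold. Its values ran from 41.6 CPM in uninduced clone 2 to 77.5 CPM in stimulated WT cells. The difference in response from WT was 0.07 (-0.11 to 0.25) in clone 1 and 0.03 (-0.15 to 0.21) in clone 2. In clone 2 its log2 fold change against WT was -0.33 uninduced and -0.30 stimulated. Chromosome 17, which carries both genes, had a median log2 fold change of -0.15 uninduced and -0.24 stimulated in clone 2 over 475 genes averaging 5 CPM or more, and 0.16 and 0.07 in clone 1. The part of these shifts in the small differences was not tested.

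The makeup of each receptor family shifted with these changes. *Pparg* made up 67.9% ± 0.476 (SD, n = 3) of the PPAR level per kb in uninduced WT cells and 13.5% ± 1.02 in stimulated WT cells. In clone 1 its share was 54.1% ± 1.14 uninduced and 47.3% ± 0.955 stimulated, and in clone 2 it was 60.5% ± 0.754 and 41.2% ± 2.46. *Rxra* made up 72.3% ± 1.47 of the RXR level in uninduced and 52.1% ± 1.67 in stimulated WT cells. Its share was 76.6% ± 0.209 and 82.3% ± 1.06 in clone 1, and 80.9% ± 0.615 and 80.8% ± 0.639 in clone 2. These shares are descriptions without a test. In WT cells the Rxra to Pparg ratio per kb went from 2.36 to 15.5, since *Pparg* fell further than *Rxra*. It went from 3.74 to 7.80 in clone 1 with little change in *Pparg*, and from 3.96 to 10.2 in clone 2.

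**Figure D3:**
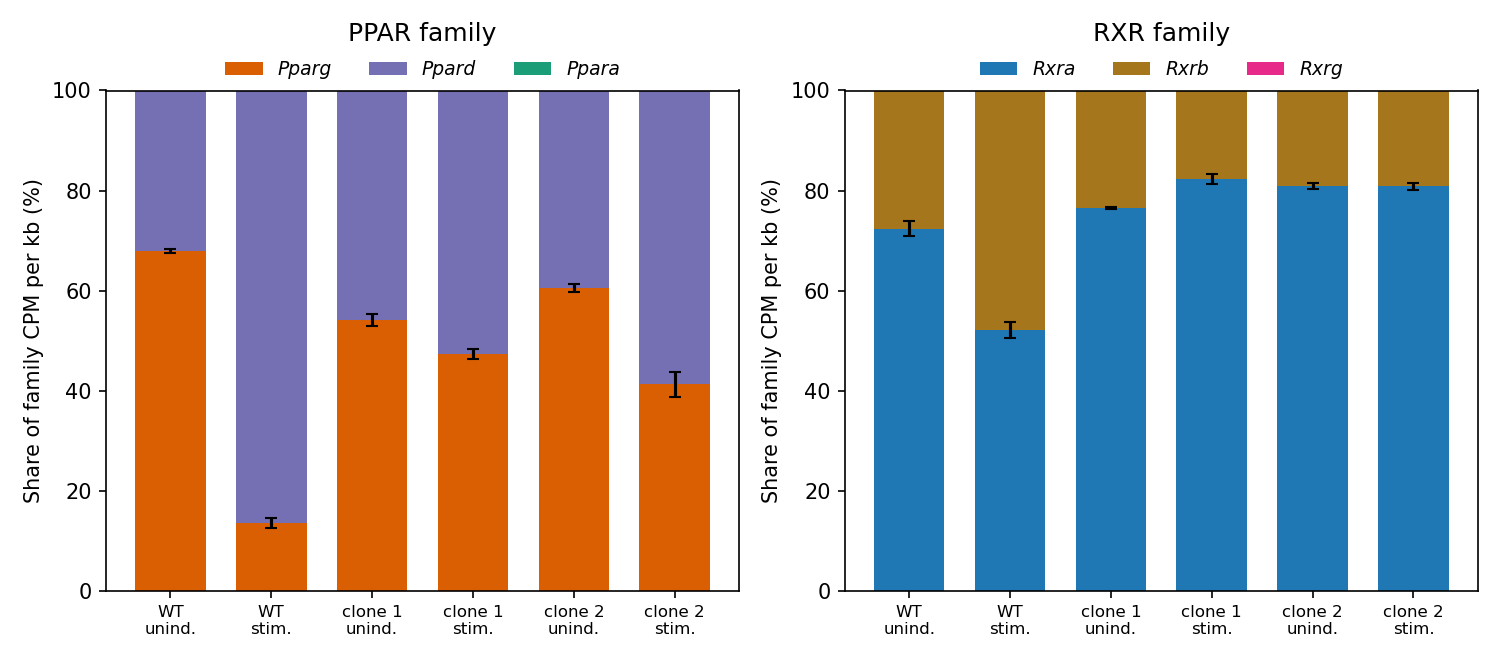
Share of the summed CPM per kb of each receptor family held by each gene (y axis, %, stacked to 100) in the 6 groups (x axis), as the mean of 3 libraries with the SD on the lowest segment. Stimulated WT cells had the lowest *Pparg* share (13.5%) and the lowest *Rxra* share (52.1%), and *Ppara* and *Rxrg* are too low to be seen.

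*Ppargc1a* (ENSMUSG00000029167, chromosome 5 from 51454250 to 51567726, minus strand) encodes PGC-1α. It was detected mainly in the uninduced clones and was nearly absent after stimulation. Uninduced WT libraries held 3, 5 and 9 counts and stimulated WT libraries none. Clone 1 held 128, 132 and 163 counts uninduced and 4, 16 and 8 stimulated. Clone 2 held 291, 137 and 96 counts uninduced, the first in the deepest library, and 2, 0 and 1 stimulated. In CPM the uninduced levels were 0.260 ± 0.0842 in WT cells, 7.36 ± 0.972 for clone 1 and 6.04 ± 0.464 for clone 2 (SD, n = 3), with no overlap between WT and either clone. The gene passed the filter through the uninduced clone libraries, the same ones compared here with WT and with the stimulated clones. The log2 fold change against uninduced WT was 4.74 (SE 0.355, adjusted p = 5.48e-12) in clone 1 and 4.46 (SE 0.355, adjusted p = 1.92e-11) in clone 2 in edgeR. By summed counts these are 27.0-fold (95% counting interval 16.7 to 46.9) and 22.7-fold (14.1 to 39.4). On stimulation *Ppargc1a* fell at least 5.97-fold in WT cells, taking 3 counts over the group as the floor. It fell 17.8-fold in clone 1 (12.2 to 27.2) and 103-fold in clone 2 (34.9 to 500) by summed counts. Stimulated clone 1 was at least 9.05-fold above WT. Stimulated clone 2 gives no fold, as 3 counts stood against 0, and its adjusted p of 0.0520 ranged from 0.0281 to 0.261 over the alternatives, being lowest without stimulated clone 2 replicate 2 and at 0.0465 and 0.0457 without stimulated clone 1 replicates 1 and 2. Counting intervals and floors cover counting error only. Because stimulated WT cells had no count, the difference in response from WT is not given. Among uninduced cells, macrophage markers summed to 5.70 to 7.07 CPM in clone 1 and 6.05 to 6.55 CPM in clone 2 against 0.990 to 1.99 CPM in WT cells. Of these 6 markers *Lyz2* carried most, at a mean of 5.59 and 4.65 CPM, while *Ptprc* and *Itgam* had no count in either. Skeletal muscle markers summed to 1.59 to 2.04 CPM in clone 1, 2.35 to 3.64 CPM in clone 2 and 0.408 to 0.944 CPM in WT cells, and *Ckm* had no count in any of them. Here *Des* carried most, at a mean of 1.76, 2.87 and 0.480 CPM in the same order. *Myod1* and *Myog* had no count in clone 1 or WT cells and averaged at most 0.0667 CPM in clone 2. Epithelial markers, mostly *Cdh1*, summed to 0.805 to 1.76 CPM in clone 1, 2.65 to 3.28 CPM in clone 2 and 0.472 to 1.34 CPM in WT cells. After stimulation macrophage markers summed to 0.692 to 0.811 CPM in clone 1 and 0.448 to 1.44 CPM in clone 2, with *Lyz2* at a mean of 0.302 and 0.291 CPM. Skeletal muscle markers then summed to 0.592 to 0.905 CPM and 0.327 to 1.08 CPM, and epithelial markers to 0 and at most 0.0560 CPM. The part of these markers in the *Ppargc1a* differences was not tested. The window before the RefSeq start of *Ppargc1a* is shown because it holds a core of the cAMP response element, TGACGT, found here on the opposite strand as ACGTCA (chr5:51567727-51567975, minus strand, GRCm38.p6, RefSeq, with the last base left out as it lies in an exon). Capitals mark the match, which starts 49 bases before the end of the printed sequence.
Ppargc1a: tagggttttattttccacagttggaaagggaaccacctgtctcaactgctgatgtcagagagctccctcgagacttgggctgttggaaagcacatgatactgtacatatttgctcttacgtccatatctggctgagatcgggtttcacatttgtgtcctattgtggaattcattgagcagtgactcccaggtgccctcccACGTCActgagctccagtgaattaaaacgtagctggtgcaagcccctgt
The core occurred in 6.47% of the 32851 windows. The nuclear receptor half-site AGGTCA, held by 14% of all windows, was not in it, but was in those of the other 2 *Pparg* starts and of the second starts of *Rxra* and *Rxrg*. The paired PPAR-RXR element (AGGTCA, any base, AGGTCA) was found in 0.0335% of all windows and the SMAD palindrome GTCTAGAC in 0.167%, and neither was found before any start of the 7 genes searched. *Ppargc1b* was not searched. A match is a description of letters only.

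*Ppargc1b* (ENSMUSG00000033871, chromosome 18 from 61298136 to 61400431, minus strand), which encodes PGC-1β, was scarce in every group. The counts were 0, 21 and 24 in uninduced and 3, 2 and 1 in stimulated WT cells, 17, 13 and 26 and then 4, 17 and 2 in clone 1, and 80, 26 and 32 and then 7, 2 and 5 in clone 2. In CPM, each stimulated clone lay below its uninduced libraries without overlap, in clone 1 at no more than 0.627 against at least 0.697 CPM. Uninduced WT replicate 1, with no count, overlapped the stimulated WT libraries. Uninduced clone 2, at 1.15 CPM or more, lay just above uninduced WT cells, at 1.10 CPM or less. The log2 change on stimulation was -2.84 (SE 0.870, adjusted p = 0.00585) in WT cells, -2.49 (SE 0.724, adjusted p = 0.00427) in clone 2 and -1.56 (SE 0.701, adjusted p = 0.0603) in clone 1. Under glmTreat, which tests against the fold threshold itself, the calls in WT cells and clone 2 were lost (adjusted p = 0.0598 and 0.0646). The clone 1 change passed the threshold without uninduced WT replicate 1 (adjusted p = 0.0123) or stimulated clone 1 replicate 2 (adjusted p = 0.0145). Against WT no comparison was called. In stimulated clone 1 the adjusted p of 0.107 became 0.0384 without uninduced WT replicate 1 and 0.0489 without stimulated clone 1 replicate 3.

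*Ppara* and *Rxrg*, which encode PPARα and RXRγ, did not pass the filter. *Ppara* (ENSMUSG00000022383, chromosome 15 from 85734983 to 85802819, plus strand) had 4 counts, all in uninduced clone 1 replicate 3. *Rxrg* (ENSMUSG00000015843, chromosome 1 from 167598384 to 167639623, plus strand) had 3 counts, all in uninduced clone 2 replicate 1, the deepest library. A count of 0 over a group allows a level of up to 0.0354 CPM in uninduced clone 2, the deepest group, and up to 0.0603 CPM in stimulated clone 2, the shallowest.

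Counted over the 6 tested genes, 3 were called lower on stimulation in WT cells (*Pparg*, *Ppargc1a* and *Ppargc1b*), 1 in clone 1 (*Ppargc1a*) and 2 in clone 2 (*Ppargc1a* and *Ppargc1b*). *Rxra* in WT cells and *Pparg* in clone 2 also fell, short of the fold threshold. Of all tested genes, 13.6% were called lower for WT, 10.7% for clone 1 and 11.2% for clone 2. *Ppargc1a* and *Ppargc1b* passed the filter only with clone libraries in the fit. With the WT groups fitted alone both were left untested, and 1 gene, *Pparg*, was called. Their falls in the clones start from the uninduced clone libraries, where both were highest, so those calls are not independent of the filter. In uninduced cells *Ppargc1a* alone was called higher than WT, in both clones, where 6.32% of all genes were called higher in clone 1 and 5.54% in clone 2. The gene passed the filter through these uninduced clone libraries, where it was high, so that call is not independent of the filter. In stimulated cells 3 of the 6 were called higher in clone 1 (*Pparg*, *Rxra* and *Ppargc1a*; 9.42% of all genes) and 2 in clone 2 (*Pparg* and *Rxra*; 7.95%). The *Ppargc1a* call in clone 1 stood against WT libraries without a count. With only these 2 groups fitted the gene did not pass the filter. Without regard to size, 4 of the 6 were fully apart from WT in uninduced clone 1 and 6 in uninduced clone 2 (55.7% and 55.2% of all genes), and 4 and 3 in the stimulated clones (65.9% and 65.6%). The difference in response was called for *Pparg* and *Rxra* in each clone, 2 of 6 genes, against 5.34% of all genes called in that direction in clone 1 and 4.89% in clone 2. Between the clones, edgeR called none of the 6 in uninduced cells (8.67% of all genes in either direction). The unadjusted p was under 0.05 for 3 of them, and DESeq2 also called 0. Libraries were fully apart for 4 (55.6% of all genes). In stimulated cells it called *Ppargc1a* higher in clone 1 than in clone 2 (5.50% of all genes), by 6.85-fold from 28 and 3 counts (95% counting interval 2.11 to 35.2), and 5 were fully apart (54.6%). That call was lost under glmTreat (adjusted p = 0.0812), and *Ppargc1a* did not pass the filter with only these groups fitted.

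Genes known to respond to PPARs in fat storage and fatty acid oxidation formed a list of 52, of which 39 were tested. Lists are compared with WT throughout, both clones against the same WT libraries, and a few genes outside the naming rule are named, with their values seen, where a count was 5 or fewer. In list counts, raised, lowered, higher and lower refer to genes that were called. In stimulated clone 1, 16 PPAR response genes were called higher and 6 lower (56.4% of the list, against 19.0% of all genes), with a median log2 fold change of 0.40 against -0.01 over all genes. In stimulated clone 2 there were 10 higher and 6 lower (41.0% against 16.9%), with a median of 0.30. *Plin4*, which encodes a lipid droplet coat protein, fell on stimulation in WT cells from 42.7 ± 5.94 to 0.122 ± 0.0513 CPM, and stood at 146 ± 15.8 CPM in stimulated clone 1 and 10.0 ± 1.08 CPM in stimulated clone 2. *Plin1*, the perilipin of mature fat cells, had no count in stimulated WT cells, 7.78 ± 1.71 CPM in stimulated clone 1 and 0.646 ± 0.471 CPM in stimulated clone 2. The list did not move one way. *Slc27a1*, a fatty acid transporter, was lower in stimulated clones, at 0.389 ± 0.428 and 0.217 ± 0.0774 CPM against 10.5 ± 0.209 CPM in WT, as it was uninduced. *Acot1*, an acyl-CoA thioesterase whose reads may be shared with near copies such as *Acot2*, was at 10.9 ± 2.46 CPM in uninduced and 10.3 ± 2.04 CPM in stimulated WT cells and at no more than 0.0304 CPM on average in any clone group. In uninduced cells 5 of the list were called higher in clone 1 (*Acsl1*, *Cd36*, *Cidec*, *Ehhadh* and *Plin4*) and 7 lower (30.8% against 15.1% of all genes). In clone 2, 4 were higher (*Acot2*, *Ehhadh*, *Plin4* and *Vnn1*) and 10 lower (35.9% against 15.1%). In WT cells stimulation raised 5 of the list (*Angptl4*, *Cpt1a*, *Fgf21*, *Pdk4* and *Ucp2*) and lowered 7 (30.8% against 19.9%).

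Genes known to act on *Pparg* transcription in fat cell differentiation made a list of 25, with 23 tested. The list was not split by the direction in which its genes act, so its counts give no net effect on *Pparg*. Stimulation of WT cells raised 2 of them (*Cebpb* and *Cebpd*) and lowered 11 (56.5% of the list against 19.9% of all genes), with a median of -0.88. In uninduced cells none was called higher in either clone and 7 in clone 1 and 10 in clone 2 were called lower (30.4% and 43.5% of the list, against 15.1% of all genes in each), with medians of -0.60 and -0.25. In stimulated clone 1, 11 were higher and 5 lower (*Dlk1*, *Ebf2*, *Gata2*, *Zfp423* and *Zfp467*), 69.6% of the list against 19.0% of all genes. In stimulated clone 2, 5 were higher (*Cebpb*, *Cebpd*, *Klf4*, *Nr3c1* and *Stat5a*) and 4 lower (*Dlk1*, *Ebf2*, *Gata2* and *Zfp467*), 39.1% of the list against 16.9% of all genes. *Cebpd*, a C/EBP factor of early adipogenesis, was at 272 ± 3.36 CPM in stimulated WT cells and 749 ± 43.9 CPM in stimulated clone 1. Against WT its log2 fold change was 1.46 (SE 0.0592) in clone 1 and 1.89 (SE 0.0599) in clone 2. *Stat5a*, a cytokine-activated transcription factor, fell in WT cells from 73.6 ± 7.24 to 28.7 ± 1.51 CPM and stood at 196 ± 9.81 and 125 ± 7.58 CPM in the stimulated clones. *Nr3c1*, the glucocorticoid receptor on which dexamethasone acts, fell in WT cells from 123 ± 6.0 to 40.9 ± 0.993 CPM, against 130.0 ± 7.19 and 122 ± 10.0 CPM in the stimulated clones. *Ebf2*, an early B cell factor of preadipocytes, was at 4.31 ± 0.947 CPM in uninduced WT cells and at most 0.573 CPM on average in any clone group.

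Coactivators and corepressors of nuclear receptors made a list of 23, with 21 tested. In stimulated clone 1, 4 were called higher (*Tob2*, *Kat2b*, *Nrip1* and *Tbl1xr1*) and 1 lower, 23.8% of the list against 19.0% of all genes. In stimulated clone 2, 3 were higher (*Tob2*, *Lpin1* and *Nrip1*) and 1 lower, 19.0% against 16.9%. *Tob2*, an antiproliferative protein of the TOB family, was at 67.4 ± 4.17 CPM after stimulation of WT, 271 ± 4.03 CPM for clone 1 and 169 ± 4.17 CPM for clone 2. *Nrip1*, which encodes the ligand-dependent corepressor RIP140, was at 25.1 ± 1.83, 55.7 ± 4.84 and 54.4 ± 5.43 CPM in the same order. Uninduced, *Lpin1* was called lower in clone 1 (4.76% of the list against 15.1% of all genes). EdgeR called 0 in uninduced clone 2 (again 15.1% of all genes), where 13 of the 21 had an unadjusted p under 0.05 and DESeq2 called 0. In WT cells stimulation raised 2 of the 21, *Pprc1* among them, and lowered *Kat2b* and *Lpin1*, where 19.9% of all genes were called in either direction.

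Of the 13 nuclear receptors that can pair with RXR, 8 were tested. *Nr4a1*, an orphan receptor of the immediate early response, fell on stimulation in WT cells from 116 ± 15.3 to 43.5 ± 6.17 CPM and was at 179.6 ± 23.9 and 202 ± 8.18 CPM in the stimulated clones, a log2 fold change of 2.04 (SE 0.134) and 2.22 (SE 0.135). It was the partner called higher in both. *Thra* and *Vdr* were also called higher in stimulated clone 1, making 37.5% of the list against 19.0% of all genes there and 12.5% against 16.9% in clone 2. In the uninduced clones, *Nr1h3* and *Nr4a2* were called lower in both (25% against 15.1%), 1 of them without uninduced WT replicate 1 or uninduced clone 1 replicate 1 or 2 in clone 1. In WT cells stimulation raised *Vdr* and lowered *Nr1h3* and *Nr4a1* (37.5% against 19.9%).

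The PGC-1 partners and mitochondrial targets, 24 tested of 30, had no call in uninduced cells. EdgeR and DESeq2 each called 0 of them in clone 1 and 0 in clone 2 (edgeR called 15.1% of all genes in each), although 16 and 13 had an unadjusted p under 0.05, with medians of -0.13 and 0.03. With most single libraries left out 1 was called in each. In stimulated cells *Sod2* (mitochondrial superoxide dismutase) was called higher in both clones. Its level was 107 ± 5.77 CPM for WT, 476 ± 15.1 CPM for clone 1 and 398 ± 12.4 CPM for clone 2. In clone 1 *Cat* was also called higher and *Tfam* lower (12.5% of the list against 19.0% of all genes, and 4.17% against 16.9% in clone 2). In WT cells stimulation raised *Cycs*, *Tfb1m* and *Vegfa* (12.5% against 19.9%).

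**Figure D4:**
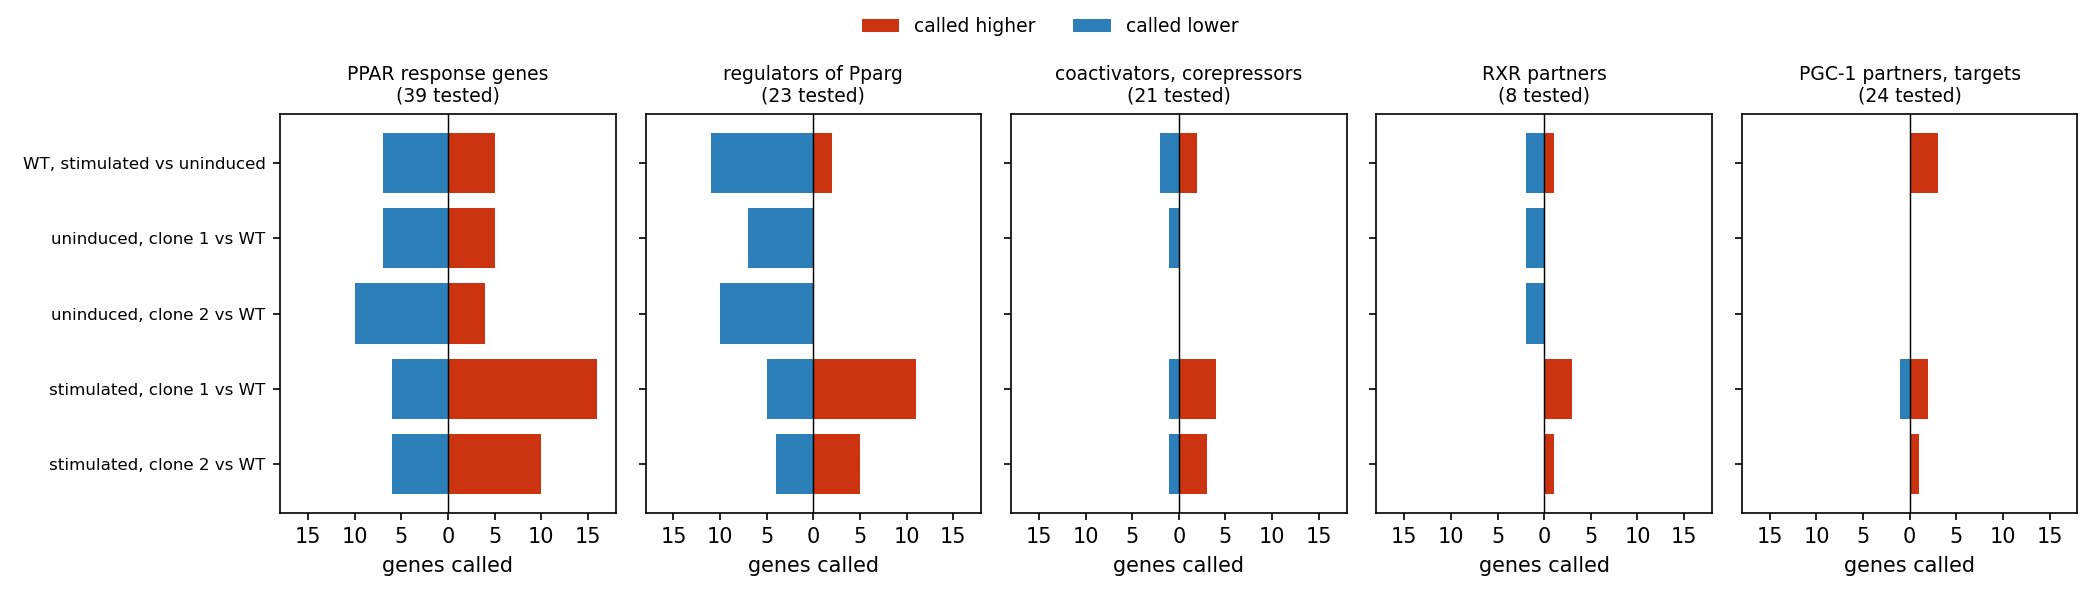
Genes of the 5 companion lists called higher (to the right) or lower (to the left) in 5 comparisons (y axis), as counts on the x axis. PPAR response genes and regulators of *Pparg* carried most calls, and the regulators had none higher in the uninduced clones against 11 and 5 in the stimulated clones.

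The tested genes whose profile over the 6 group means was nearest to each receptor or coactivator were found among 10058 or 10059 other genes averaging 5 CPM or more, by the root mean square difference of centred log2 CPM. For *Rxra* these were *Pcx* (0.125), *Heg1* (0.140) and *Mgat5* (0.177), and for *Pparg* they were *Enpp2* (0.194), *Fam107a* (0.353) and *Cav1* (0.384). *Ppard* was nearest to *Tmem241* (0.0418), *Emc7* (0.0466) and *Sft2d3* (0.0563), and *Rxrb* to *Zfp213* (0.0464), *Gm15427* (0.0469) and *Praf2* (0.0499), small distances between profiles that all varied little. For *Ppargc1a*, whose own profile varied most (SD 2.47, against 1.19 for *Pparg*), they were *Ces1d* (0.693), *Lmo7* (0.866) and *Wfdc18* (0.875). For *Ppargc1b* they were *Col6a2* (0.247), *Cpne2* (0.260) and *Rab3il1* (0.288). The 6 points share libraries and depth, so the distances are descriptions.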

How the data were processed

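Bulk RNA sequencing of poly(A) RNA from 18 libraries in 6 groups was used. The authors mapped reads to GRCm38 (mm10) with HISAT2 v2.1.0 and deposited raw counts per gene, without normalization, beside a gene length. Which program counted reads, on which annotation and with which strand setting, was not given in the sources used here. In their methods the authors name DESeq2 v1.28.1, a 5% false discovery rate and the 2-fold threshold that was also used here.

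Genes kept by filterByExpr on the groups (minimum count 10) were scaled with TMM and fitted with 1 mean per group over all 18 libraries by edgeR 4.0.16 (glmQLFit robust, glmQLFTest) in R 4.3.3, with limma 3.58.1. A call needed a Benjamini-Hochberg adjusted p below 0.05 over 14317 genes and an absolute log2 fold change above 1. There were 11 comparisons. The SE is the log2 fold change divided by the square root of F. Intervals are at 95%. Values are CPM on effective library sizes, divided by length in kb where levels of different genes are compared. Total counts per library ran from 15576685 to 42005596, and 3 counts served as the floor. The procedure was tested on simulated data, and tables and figures used Python 3.11.15 with pandas 2.3.3, scipy 1.17.1 and matplotlib 3.10.9.

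The 8 genes and the 5 companion lists were chosen with earlier results of these data known. Named from each list were up to 4 genes called in the same direction in both stimulated clones against WT with a mean of at least 1 CPM, ranked by the smaller change, and for each tested member the 3 nearest profiles. *Gyk* had no entry by that symbol and *Ddit3* had 2, so neither was counted. Values of 1 coregulator that met this rule are not reported here. Alternatives were the DESeq2 1.42.0 Wald test, DESeq2 size factors, glmTreat, calls by adjusted p alone, a block for replicate number, fits to the compared groups alone, a filter of 1 CPM in 3 libraries or of a single count, and each of the 18 libraries left out. Promoter windows are the 250 bases before RefSeq starts of GRCm38.p6, with bases inside annotated exons not printed.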

Additional observations from a re-analysis of the deposited data

Results flagged for a closer look

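Each of 4 results was picked out because the effect of stimulation differed between a clone and WT cells by the interaction test itself, with the WT libraries shared. For *Rxra* the log2 response exceeded that of WT by 1.85 in clone 1 and by 1.29 in clone 2, with opposite signs of the response in WT cells and in the clones. For *Pparg* the log2 response exceeded that of WT by 3.48 in clone 1 and by 2.63 in clone 2.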

How the results depend on the processing

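Calls of *Pparg* and *Rxra* against WT in stimulated cells and in the difference in response, and of *Ppargc1a* in uninduced cells, kept their side of the threshold under every alternative run. Over the alternatives other than leaving out a library, 484 values of single genes kept their call and direction, 29 gained a call, 3 lost one (*Ppargc1b* on stimulation in WT cells and in clone 2, and *Ppargc1a* between the stimulated clones, all under glmTreat) and 4 changed sign. Without a fold threshold the number of the 6 genes called on stimulation became 6 for WT, 4 for clone 1 and 6 for clone 2. No share of all genes is given for any count by adjusted or unadjusted p alone, in any section. Such counts are therefore not results about these genes or the lists. It became 4 in each uninduced clone against WT, 3 between the uninduced clones and 5 between the stimulated clones. Under glmTreat it became 1 in the response of clone 2 and 0 between the stimulated clones. With only the groups compared, which changes the genes that pass the filter, it became 1 in the response of WT cells, 2 in that of clone 1 and 0 between the stimulated clones. *Ppargc1a* was then also untested in stimulated clone 1 against WT. The response of clone 1 had 3 calls without a filter beyond 1 count and 2 with a filter of 1 CPM in 3 libraries, from *Rxra* at the fold threshold and *Ppargc1b*. With each library left out the counts ranged from 1 to 2 in the response of clone 1, from 3 to 4 in stimulated clone 1 and from 2 to 3 in stimulated clone 2 against WT, and did not move in the other 8 comparisons.

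No value that changed sign was a call. The difference in response of *Ppard* in clone 2 (-0.0053) became 0.0010 with DESeq2 size factors, 0.011 with the filter of 1 CPM and 0.00067 with DESeq2, and -0.086 to 0.052 with a library left out. That of *Rxrb* in clone 2 became -0.04 without a filter and ranged from -0.032 to 0.068 with a library left out, and that of *Ppargc1b* from -0.11 to 0.88. With a library left out, *Ppargc1b* ranged from -0.044 to 0.95 in uninduced clone 1 against WT and from -0.88 to 0.65 between the stimulated clones, *Rxrb* from -0.050 to 0.019 in stimulated clone 1 against WT, and *Pparg* from -0.091 to 0.032 between the uninduced clones. The cause was not tested.

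No shared shift by replicate number was seen, since same-numbered libraries of different groups deviated with an r of -0.041 to 0.050 and 0 of 45 pairs passed 0.1. With 3 libraries in each group, this cannot exclude that same-numbered libraries were handled together. With replicate number as a block the counts stayed at 3 in the response of WT cells, 1 and 2 in those of the clones, 3 and 2 in the stimulated clones against WT, and changed in no comparison. Of the list counts, those of the coregulators became 16 and 15 in stimulated clones 1 and 2 without a fold threshold and 2 and 1 under glmTreat. Without the fold threshold the PPAR response genes became 35 and 27, the RXR partners 5 and 5, the PGC-1 list 17 and 17 and the regulators of *Pparg* 18 in clone 2. In uninduced clones 1 and 2 these became 23 and 27, 4 and 4, 15 and 13, and 21 and 21, and the coregulators 12 and 12. With a library left out the PGC-1 list had 0 or 1 call in uninduced clones. Without a fold threshold the calls in the response of WT cells became 18 for the coregulators, 27 for PPAR response genes, 8 for RXR partners and 19 for the PGC-1 list. Without a filter beyond 1 count the PGC-1 list had 5 there and 2 in uninduced clone 1, and the coregulators 2 and 1 in uninduced clones. Without stimulated clone 2 replicate 1 the PGC-1 list had 2 in stimulated clone 2. Under glmTreat the RXR partners had 1 and 0 in uninduced clones, the regulators had 7 calls in the response of WT cells, and the PPAR response genes 7 and 9 in uninduced clones.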
